A study of Mus musculus with 8 samples.

Results

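Homeostatic chemokines and atypical chemokine receptors were followed in lymphatic endothelium from the ear skin of mice, as the group of 9 genes Cxcl12, Cxcl14, Cx3cl1, Ccl19, Ackr1, Ackr2, Ackr3, Ackr4 and Ccrl2. The genes were selected by name from the array's annotation, which must name that gene alone: 8 of the 9 had such a probe set (a set of short oligonucleotides read out as 1 signal), out of 18193 genes on the array, with 18 probe sets between them. Ccl19 had none, because its probe set also names other entries. The samples were 4 untreated pools and 4 inflamed pools of female FVB mice aged 8 to 10 weeks, with 3 mice per pool. Inflamed mice had been sensitised with 2% oxazolone, a contact allergen, and challenged 5 days later with 1% oxazolone on the ears, which were taken after 24 hours. Untreated mice were healthy, and no vehicle-treated group was among the samples. Cells were sorted as CD31 and podoplanin positive and CD45 negative, and each untreated pool was processed on the same day as the inflamed pool of the same number, giving 4 pairs.

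Chemokines are small secreted or membrane-tethered proteins that guide leukocytes through G protein-coupled receptors. The homeostatic ones are made without an inflammatory trigger and keep leukocytes moving through resting tissue, while atypical receptors bind chemokines without G protein signalling and mostly take them up for degradation. Lymphatic endothelium uses both: it displays Ccl21 to cells carrying the receptor Ccr7, and Ackr2 on its surface clears inflammatory CC chemokines.

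In inflamed samples the transcripts of the chemokine Cxcl14 and of the scavenging receptors Ackr2 and Ackr3 were higher, and Ccrl2 went from background to a measurable signal. Cxcl12 was higher in 3 of 4 pairs and Ackr4 was higher in none, and neither passed the test. Cx3cl1 and Ackr1 were at or near background on most arrays. The Ccl21 genes, read by 1 shared probe set, stayed bright in both groups, and a probe set shared by Ccl19 and its copies was higher in inflamed samples. Of the 5 genes bright enough to be tested with all others, 3 were higher and 0 lower at an adjusted p under 0.05 (limma with the pair as a block, Benjamini-Hochberg over 10843 genes), beside 6.94% of all genes called in either direction with 3.91% called higher and 3.02% lower. The median change of these 5 genes was 1.16 on the log2 scale, beside -0.09 for all tested genes. The group was chosen with earlier results of these data known. Its counts and median beside those of all genes are therefore descriptive and cannot show that the group differs from other genes.

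**Figure D1:**
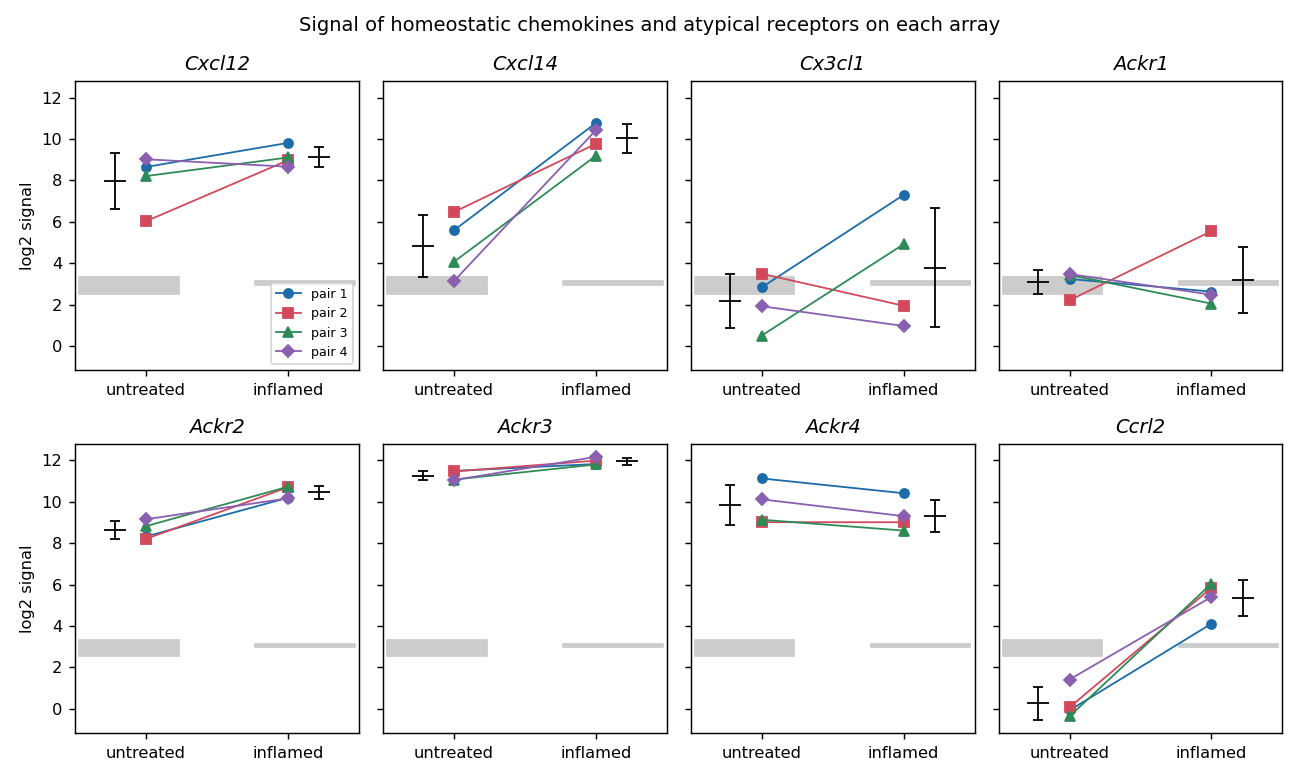
Log2 signal (vertical axis) of 8 genes in untreated and inflamed samples, with 1 coloured line per pair. Black bars give the mean and SD of 4 arrays, and grey bands the range of background ceilings of the group's 4 arrays; Ackr2, Ackr3, Cxcl14 and Ccrl2 rise in all 4 pairs, and Cx3cl1 and Ackr1 lie around the band.

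Some facts of the arrays touch these values. The background ceiling of an array, the 95th percentile of its bacterial control probe sets, lay between signals of 5.79 and 9.94, and signals below it have no order. The summed signal of 12 lymphatic endothelial markers was lower in inflamed samples in all 4 pairs, 13503 to 24307 against 27190 to 36662. Of the 12 genes, 7 were called lower and 0 higher. Prox1, Lyve1, Flt4 and Pdpn were above background on all 8 arrays, and none of them was called. Prox1, Lyve1 and Flt4 differed by -1.44, -0.18 and -0.37, while Pdpn, which encodes the sort marker podoplanin, was higher in 4 of 4 pairs, by 0.56. Pan-leukocyte markers had sums of 143.7 to 735 untreated and 1266 to 6487 inflamed, with 2 of 5 tested genes called higher, Cd53 and Fcer1g. Over all tested genes 3.91% were called higher. Cd53 was above background on 0 of 4 untreated arrays and Fcer1g on 1. Brightness for testing was judged on the mean over both groups, so these genes passed through their inflamed signal, and the count is descriptive. Laptm5, not called, reached 3258.5 on 1 inflamed array, and Ptprc, which encodes the sort marker CD45, was above background on 0 untreated and 3 inflamed arrays. Neutrophil markers had sums of 22.8 to 47.6 untreated and 719 to 1635 inflamed, carried by S100a8 and S100a9, with 2 of the 8 measured genes called higher. S100a8 and S100a9 were each above background on 1 of 4 untreated arrays, so the same limit holds for them. Fibroblast markers were bright in both groups, 4428 to 19657 untreated and 10346 to 24445 inflamed, and higher in all 4 pairs, with 1 of 9 tested genes called higher. The log2 ratio of 3' to 5' signal of Gapdh, a measure of RNA integrity, fell from 3.85 ± 0.34 to 3.06 ± 0.33 (SD, n = 4), in all 4 pairs, while that of Actb was -0.08 ± 0.06 and -0.07 ± 0.05, higher in 2 pairs and lower in 2. The measures that differed moved with each rise given below, and their part in it was not tested. In sorted bulk samples, fewer cells of a type and less RNA per cell cannot be told apart.

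**Figure D2:**
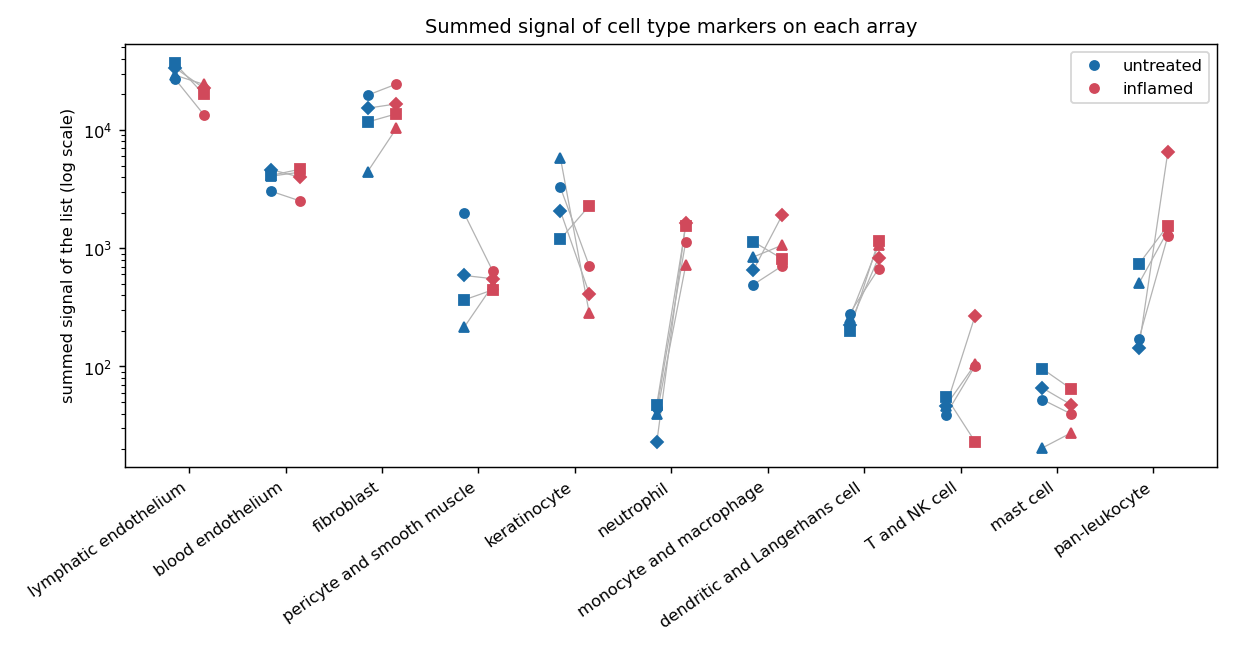
Summed signal of cell type marker lists on each array (vertical axis, log scale), untreated in blue and inflamed in red, with 1 marker shape and 1 grey line per pair. The lymphatic endothelial sum is lower in all 4 inflamed samples, and the neutrophil and pan-leukocyte sums are higher.

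The regulatory sequence just before the start of transcription is shown for 4 genes that were higher, because they moved in the same direction. RefSeq promoter windows of GRCm38.p6 were found for all 9 genes, and the 250 bases before each start are given 5' to 3' on the gene's strand. Capitals mark matches to the binding motif of NF-kB (the kB motif), the STAT motif GAS (TTCNNNGAA) or the interferon regulatory factor motif IRF (GAAA repeated after any 2 bases), all searched on both strands. The windows are chr9:121898105-121898354 (+) for Ackr2, chr9:111057519-111057768 (-) for Ccrl2, chr13:56296552-56296801 (-) for Cxcl14 and chr1:90203730-90203979 (+) for Ackr3.
Ackr2: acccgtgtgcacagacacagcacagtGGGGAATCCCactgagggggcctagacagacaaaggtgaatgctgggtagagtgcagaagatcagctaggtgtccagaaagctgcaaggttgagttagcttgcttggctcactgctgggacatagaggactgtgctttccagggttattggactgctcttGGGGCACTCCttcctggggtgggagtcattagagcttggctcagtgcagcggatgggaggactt
Ccrl2: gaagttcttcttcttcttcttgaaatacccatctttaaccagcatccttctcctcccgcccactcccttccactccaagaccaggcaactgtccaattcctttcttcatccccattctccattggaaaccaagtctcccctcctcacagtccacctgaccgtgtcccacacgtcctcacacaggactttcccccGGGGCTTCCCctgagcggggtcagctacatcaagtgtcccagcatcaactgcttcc
Cxcl14: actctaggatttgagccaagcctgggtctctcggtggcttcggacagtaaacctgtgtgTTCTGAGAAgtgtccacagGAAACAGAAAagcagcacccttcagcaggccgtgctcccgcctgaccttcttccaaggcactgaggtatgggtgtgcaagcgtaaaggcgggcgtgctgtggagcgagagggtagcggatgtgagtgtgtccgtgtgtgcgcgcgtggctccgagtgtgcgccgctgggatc
Ackr3: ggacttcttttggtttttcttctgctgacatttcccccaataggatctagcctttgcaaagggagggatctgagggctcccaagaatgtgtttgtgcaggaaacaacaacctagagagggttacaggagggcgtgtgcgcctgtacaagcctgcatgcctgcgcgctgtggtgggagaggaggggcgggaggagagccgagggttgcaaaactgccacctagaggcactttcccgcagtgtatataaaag
Ackr2 held 2 kB matches, which start 224 and 64 bases before the start site, and Ccrl2 held 1, at 56 bases, in the most upstream of its 3 windows. A kB match was present in 7.25% of all 32851 windows of this length. Cxcl14 held a GAS match 191 bases and an IRF match 172 bases before the start, motifs found in 7.02% and 2.98% of all windows. Ackr3 held none of these 3 motifs, and Cxcl12, Cx3cl1, Ackr1 and Ackr4 held none either. The shared Ccl19 gene held an IRF match 208 bases before its start. AP-1 sites (TGANTCA) were in 0 of the 11 windows of the 9 genes, against 6.75% of all windows. These matches describe the letters of the windows.

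The ligands come first. Cxcl14 is a chemokine made constitutively by epithelia, including skin. Its brighter probe set by mean log2 signal read 48.1, 88.7, 16.7 and 8.78 in untreated samples 1 to 4 and 1755, 874, 586 and 1377 in inflamed samples 1 to 4. The groups did not overlap, and untreated sample 4 was under its background ceiling. The change was 5.23 ± 0.62 on the log2 scale (SE; 95% confidence interval 3.82 to 6.63; adjusted p = 0.00164 in limma), from 4.81 ± 1.50 to 10.04 ± 0.70 (SD, n = 4). The second probe set read 45.9, 27.4, 2.86 and 22.3 untreated and 2666, 1420.1, 947 and 2079 inflamed, a change of 6.62 ± 0.54 (adjusted p = 0.000276 in limma over all probe sets that passed the filter). Both probe sets thus rank the inflamed samples alike, sample 1 highest and sample 3 lowest. The fibroblast marker sum had the same order in inflamed samples, 24445, 13700, 10346 and 16606 in samples 1 to 4. In untreated samples the 2 probe sets differed in this: the fibroblast sum was 19657, 11667, 4428 and 15275, with sample 1 highest, while the brighter Cxcl14 probe set was highest in sample 2; the second Cxcl14 probe set, like the fibroblast sum, was highest in sample 1 and lowest in sample 3. The summed keratinocyte markers went the other way from Cxcl14 in 3 of 4 pairs, at 1194 to 5817 untreated and 281 to 2285 inflamed. Whether other cells of the sort carry part of the Cxcl14 signal was not tested.

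Cxcl12 is the stromal chemokine that retains cells carrying Cxcr4 and is also bound by Ackr3. Its brightest probe set read 402, 65.4, 297 and 521 in untreated samples 1 to 4 and 902, 503, 553 and 406 in inflamed samples 1 to 4. The groups overlapped: untreated sample 2 was far below the other three, and pair 4 went down. The change of 1.16 ± 0.50 (SE; 95% confidence interval 0.04 to 2.28) had an adjusted p of 0.210 in limma. The within-pair differences were 1.16, 2.94, 0.90 and -0.36, so pair 2 carried the largest part, and without pair 2 the change was 0.57. The second probe set, by contrast, was higher in all 4 pairs without overlap, at 42.8, 60.6, 19.7 and 32.4 untreated and 152, 88.4, 87.9 and 262 inflamed, a change of 1.89 ± 0.62 (adjusted p = 0.118 in limma). The third went the other way, at 20.5, 5.73, 17.6 and 24.3 untreated and 7.03, 1.65, 2.21 and 8.61 inflamed, with 1 of 4 inflamed arrays above background. When the 2 probe sets that passed the filter were averaged, Cxcl12 was called, at 1.52 (adjusted p = 0.029 in limma). The genes most like Cxcl12 over the 8 arrays were Gadd45a (Pearson r = 0.98) and Hsdl1 (r = 0.97), and neither was called.

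Cx3cl1, fractalkine, is tethered to the membrane of endothelial cells on a mucin-like stalk, and its receptor is Cx3cr1. None of its 4 probe sets passed the filter on dim signals. The brightest read 7.12, 11.2, 1.41 and 3.79 in untreated samples 1 to 4 and 158, 3.84, 30.2 and 1.95 in inflamed samples 1 to 4. Inflamed samples 1 and 3 were above background and inflamed samples 2 and 4 were not; among untreated samples only sample 2 was above it. In the fit without the filter the change was 1.60 ± 1.17 (SE; adjusted p = 0.573 in limma). The probe set next to it in number was also highest in inflamed sample 1, at 58.4, and at 2.84, 3.50 and 3.42 in the other three. A further probe set differed by -2.03, from 5.30 to 8.62 untreated to 1.20 to 2.05 inflamed, with 1 of 8 arrays above background. The remaining one stayed below background on all 8 arrays.

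Ccl19 is a ligand of Ccr7 and, like Ccl21, draws dendritic cells and T cells. The probe set that holds it names 10 entries, Ccl19 with its copies and a pseudogene, and cannot tell them apart. It read 24.3, 3.42, 3.22 and 13.6 in untreated samples 1 to 4 and 264, 285, 176 and 167 in inflamed samples 1 to 4. The groups did not overlap, and 2 of 4 untreated arrays were above background. The change of this shared signal was 4.80 ± 0.76 (SE; adjusted p = 0.00718 in limma over all probe sets that passed the filter; 0.053 without the intensity trend). The signal of Ccl21, which lymphatic endothelium displays, was likewise read by 1 shared probe set with 9 entries. It was 8985, 9837, 8037 and 11019 untreated and 6133, 8754, 8471 and 8610 inflamed, overlapping, with inflamed sample 1 lowest. Its change of -0.25 ± 0.10 (adjusted p = 0.196 in limma) depended on the scaling: it was 0.05 under median centring, and -0.44 and -0.65 with adjusted p = 0.0385 and 0.00559 under quantile and cyclic loess normalization.

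**Figure D3:**
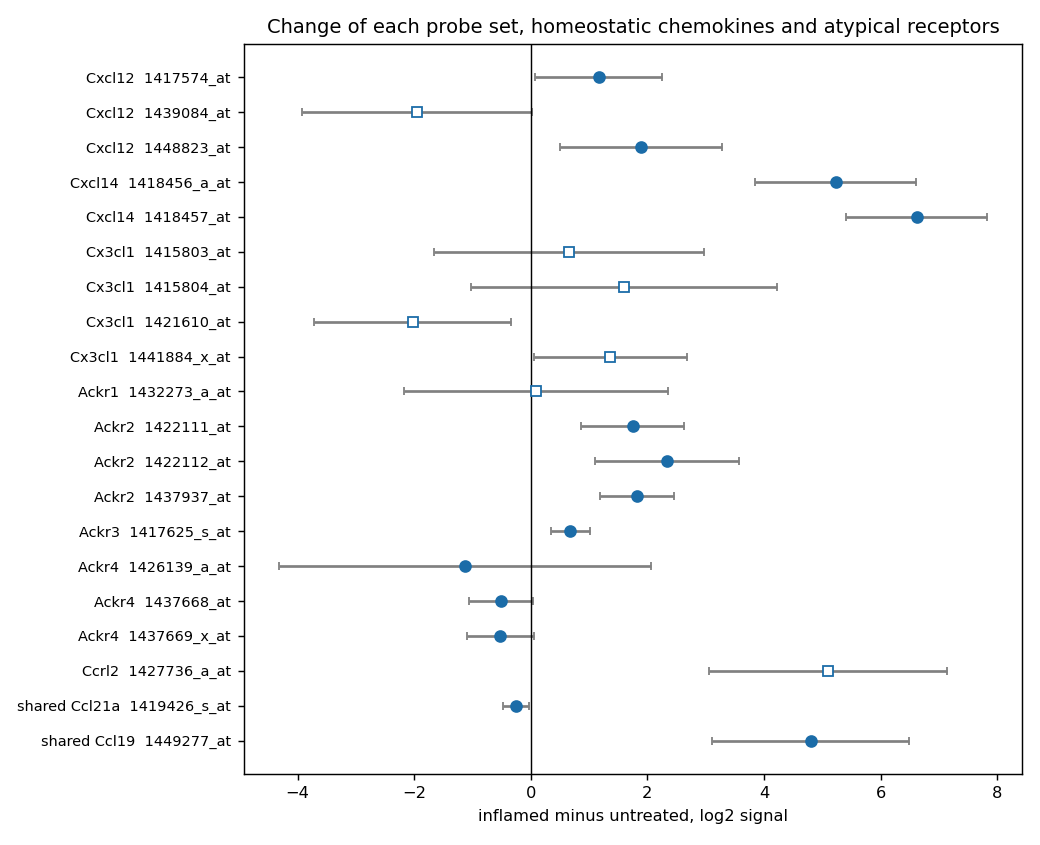
Change of each probe set, inflamed minus untreated on the log2 scale (horizontal axis), with 95% confidence intervals from limma. Filled circles passed the filter on dim signals and open squares did not. The 2 probe sets of Cxcl14 and the 3 of Ackr2 lie to the right of 0, while those of Cxcl12 and of Cx3cl1 differ in sign. The 3 of Ackr4 lie to the left of 0, with intervals that include 0.

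Among the receptors, Ackr2 (also known as D6) takes up inflammatory CC chemokines and is found on lymphatic endothelium of the skin. Its brightest probe set read 321, 296, 453 and 570.5 in untreated samples 1 to 4 and 1175, 1671, 1697 and 1151 in inflamed samples 1 to 4. The lowest inflamed sample was thus above the highest untreated one. The change was 1.82 ± 0.29 on the log2 scale (SE; 95% confidence interval 1.17 to 2.48), or 3.54-fold (adjusted p = 0.00716 in limma). The second probe set read 173, 158, 232 and 162 untreated and 759, 739, 981 and 238 inflamed, a change of 1.75 ± 0.39 (adjusted p = 0.0323). The third read 28.5, 39.0, 42.2 and 52.7 untreated and 152, 268, 307 and 129 inflamed, a change of 2.34 ± 0.55 (adjusted p = 0.0393). All 3 rose in 4 of 4 pairs without overlap, and pair 4 had the smallest rise in each. The rise went against the summed lymphatic endothelial markers, which were lower in all 4 pairs. The call ended without the intensity trend (adjusted p = 0.107), that is, when limma drew the prior for the spread from all genes alike and not from genes of like brightness, and without pair 3 (0.0525). The genes most like Ackr2 over the 8 arrays were Hddc2 (r = 0.98) and Tspan4 (r = 0.98), of which Tspan4 was called, at 1.80.

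Ackr3 (also known as Cxcr7) binds Cxcl12 and Cxcl11 and removes adrenomedullin, a peptide that acts on lymphatic growth. Its single probe set read 2881, 2829.7, 2156 and 2123 in untreated samples 1 to 4 and 3638, 4073, 3577 and 4615 in inflamed samples 1 to 4. The groups did not overlap and the spread within each was small. The change was 0.68 ± 0.15 (SE; 95% confidence interval 0.34 to 1.02), or 1.60-fold (adjusted p = 0.0294 in limma). This call was the least stable of the 3: it ended under quantile and cyclic loess normalization, where the change was 0.39 in both, without the intensity trend (adjusted p = 0.362), and without any 1 of the 4 pairs (0.0517 to 0.119). The genes most like it were Sema7a (r = 0.99), a semaphorin, called at 3.25, and Eif3i (r = 0.98), not called.

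Ackr4 (formerly Ccrl1) removes Ccl19, Ccl21 and Ccl25. Its brightest probe set read 2241, 517, 562 and 1112 in untreated samples 1 to 4 and 1364, 516, 390.4 and 633 in inflamed samples 1 to 4. The groups overlapped widely, because pairs 1 and 4 were high in both conditions. The within-pair differences were -0.72, 0.00, -0.53 and -0.81, with a mean of -0.51 ± 0.25 (SE; 95% confidence interval -1.08 to 0.05; adjusted p = 0.275 in limma). The second probe set, which may cross-hybridise by its suffix, differed by -0.52, with a rise in pair 2 from 492 to 536. The third was erratic, with untreated values of 172, 2.10, 5.77 and 243 and inflamed values of 13.1, 8.11, 51.5 and 4.02, and it differed by -1.13 ± 1.43. The genes most like Ackr4 were Sparcl1 and Ptprs (r = 0.96 for both), neither of them called.

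Ccrl2 binds chemerin without signalling and presents it to cells that carry the receptor Cmklr1. Its probe set read 0.944, 1.04, 0.771 and 2.65 in untreated samples 1 to 4, all below background, and 17.2, 57.4, 66.0 and 42.2 in inflamed samples 1 to 4, all above it. The mean over both groups was too low for the filter. In the fit of all 18193 genes without the filter, where 3.84% were called and 2.18% called higher, Ccrl2 was called (adjusted p = 0.00706 in limma). Measured against the background ceilings of the untreated arrays it was at least 5.23-fold higher, and the measured difference of 5.10 ± 0.86 (SE) is no bound. Without pair 3 the adjusted p was 0.0592. Ccrl2 is also known from activated neutrophils and macrophages, and the summed neutrophil markers, 719 to 1635 in inflamed samples, and the pan-leukocyte markers, 1266 to 6487, moved with it. Monocyte and macrophage markers had sums of 491 to 1137 untreated and 708 to 1898 inflamed. They were higher in 3 of 4 pairs, with 0 of 7 tested genes called. In inflamed samples 1 to 4 the pan-leukocyte sums were 1266, 1553, 1398 and 6487 and the neutrophil sums 1133, 1544, 719 and 1635. Ccrl2 and the pan-leukocyte sum were both lowest in sample 1, while Ccrl2 was highest in sample 3 and both sums in sample 4. Their part in the Ccrl2 signal was not tested.

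Ackr1, the Duffy receptor, carries chemokines across venular blood endothelium and sits on red cells. It was dim in both groups: the probe set read 9.43, 4.62, 10.8 and 11.1 in untreated samples 1 to 4 and 6.18, 46.9, 4.13 and 5.57 in inflamed samples 1 to 4. Only inflamed sample 2 stood clear of background in that group, and 3 of 4 untreated samples were above it by a small margin. The difference was 0.09 ± 0.99 without the filter (SE; adjusted p = 0.980 in limma), and it was -0.998 without pair 2. The summed blood endothelial markers were 3031 to 4614 untreated and 2511 to 4657 inflamed, higher in 2 of 4 pairs.

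The wider pathway was read from lists of related genes. These lists were also chosen with earlier results of these data known, so their counts beside the shares of all genes are descriptive. Among 8 inflammatory CC chemokines that Ackr2 binds, 5 of the 6 tested were higher and 0 lower, beside 3.91% of all genes called higher. The filter used the mean over both groups, so a gene bright only in inflamed samples could pass it. Ccl4 was above background on 0 of 4 untreated arrays, and Ccl8 and Ccl5 on 2 of 4 each. The median change of 5.34 thus rests in part on signals below background and is no exact size. Ccl8 rose by 6.35 ± 0.75, Ccl2 by 5.71 ± 0.63, Ccl7 by 5.62 ± 0.57 and Ccl11, an eosinophil attractant, by 2.68 ± 0.68 (SE), while Ccl4 was at least 11.3-fold higher. Ccl11 and Ccl5 were chosen for mention after their values were seen, as was Ptprc above. Ccl5 differed by 3.62 ± 1.13 (adjusted p = 0.0964) and passed only without pair 1, at 4.98. The sums of these ligands were 51.2 to 91.0 untreated and 1555 to 4528 inflamed, so ligands and receptor were both higher in 4 of 4 pairs, alongside the leukocyte markers given above.

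The next list held other ligands of Ackr3 together with receptor genes of those ligands. Of its 6 tested genes, 2 were higher and 0 lower, beside 3.91% of all genes called higher. The interferon-induced Cxcl11 was at least 7.55-fold higher, with 0 of 4 untreated arrays above background. Cd74, a receptor of the cytokine Mif but better known as the invariant chain of MHC class II, rose by 4.27 ± 0.95, and Mif itself differed by 0.97 ± 0.44 (adjusted p = 0.237). Adrenomedullin, Adm, went from 12.02 to 12.36, a difference of 0.34 ± 0.10 (adjusted p = 0.0787), which passed under median centring and under the stricter filter and was 0.04 under quantile normalization. Its receptor genes Calcrl and Ramp2 differed by -0.30 ± 0.26 and -0.21 ± 0.19, and both signs turned under median centring; this pair was chosen for mention after its values were seen.

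Of the 3 signalling receptors for these ligands, Cxcr4, the receptor of Cxcl12, was the only one bright enough to be tested, and it rose by 4.25 ± 0.55 (SE; adjusted p = 0.0025 in limma), from 4.46 to 8.71. Cxcr4 is expressed by most leukocytes as well as by endothelium, and the pan-leukocyte sums of 143.7 to 735 untreated and 1266 to 6487 inflamed moved with it. The part of leukocytes in the Cxcr4 signal was not tested. Of the 13 other signalling chemokine receptors measured, 5 were below background on all 8 arrays and 1, Ccr9, was tested, with a difference of 0.54 ± 0.79. Ccr1, chosen for mention after its values were seen, was at least 2.33-fold higher in the fit without the filter.

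Chemerin, Rarres2, rose by 3.56 ± 0.52 (SE; adjusted p = 0.00487 in limma), from 6.40 to 9.97, and by 2.08 when its probe sets were averaged (adjusted p = 0.0328). Its signalling receptor Cmklr1 differed by 1.13 ± 1.25. Fibroblasts also make chemerin. Their summed markers were higher in 4 of 4 pairs, at 4428 to 19657 untreated and 10346 to 24445 inflamed, with 1 of 9 tested genes called higher. Their part in the chemerin signal was not tested. Of 6 tested chemokines listed as constitutive beside the 9 genes, 1 was higher and 0 lower: Ccl24, an eosinophil attractant that macrophages also make when activated, by 5.90 ± 1.01, with 1 of 4 untreated arrays above background. Summed monocyte and macrophage markers were higher in 3 of 4 pairs, with 0 of 7 tested genes called. Their part in the Ccl24 signal was not tested. Cxcl17 differed by -1.94 ± 1.21, Cxcl16 by 0.32 ± 0.60 and Cxcl13 by -0.24 ± 0.82. Of the 4 tested enzymes that shed or trim chemokines, 0 passed in limma, with unadjusted p under 0.05 for Adam10 alone (-0.47 ± 0.20), a sheddase of Cx3cl1. Adam17, Mmp14 and Mmp2 differed by 0.74 ± 0.47, 0.63 ± 0.43 and -0.14 ± 0.31.

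Of 15 tested genes of receptor uptake and recycling, 3 were called lower and 0 higher, beside 3.02% of all genes called lower. The other tested genes of the list were not called. The median change was -0.64, in a list that was chosen with earlier results of these data known. Caveolin 1, Cav1, fell by 1.24, the Rab11 effector Rab11fip5 by 0.79 and the endocytic adaptor Ston2 by 1.69 on the log2 scale, each in 4 of 4 pairs. Rab4a, a small GTPase of rapid recycling, differed by -1.15 ± 0.49 (adjusted p = 0.207). The calls of Rab11fip5 and Ston2 ended without the pair block and under median centring. That of Ston2 also ended with the pair as a random block (adjusted p = 0.0699) and when its probe sets were averaged, where it differed by -0.80 (adjusted p = 0.372). The lymphatic endothelial marker sums were lower in the same 4 pairs, and their part in these falls was not tested.

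**Figure D4:**
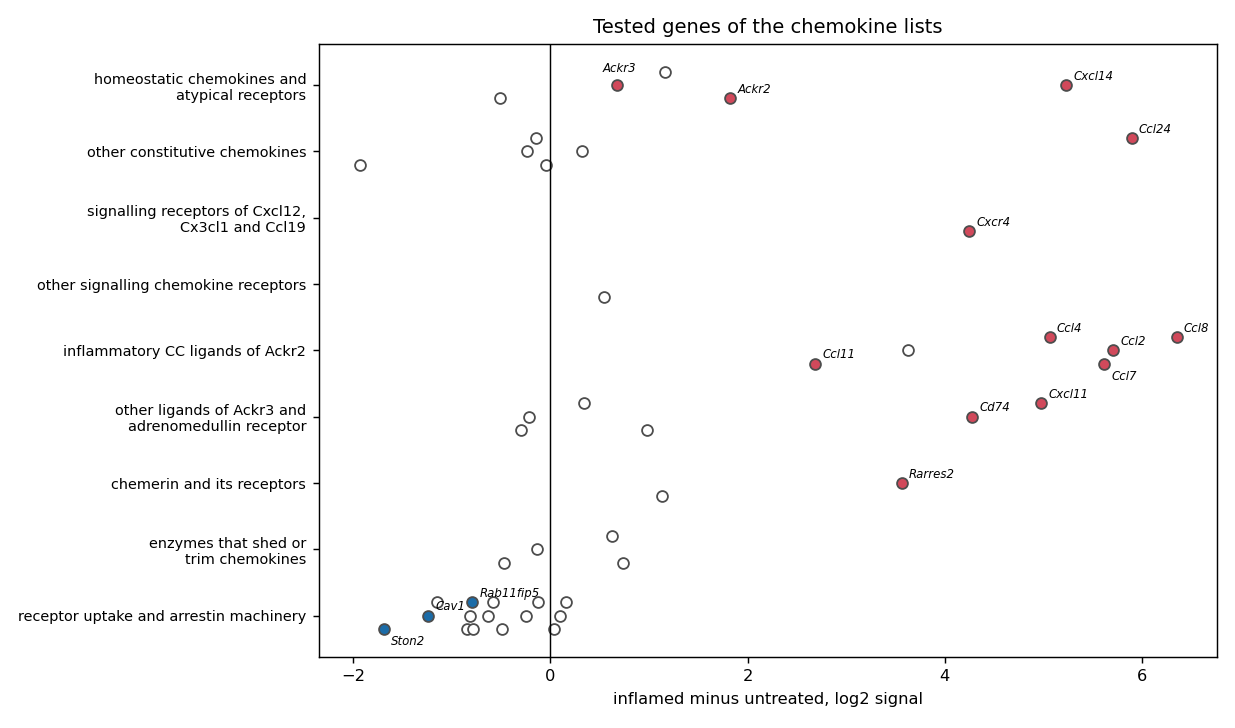
Change of each tested gene, inflamed minus untreated on the log2 scale (horizontal axis), grouped by list. Red circles were called higher, blue circles called lower and open circles not called at an adjusted p under 0.05 in limma; the called ligands lie between 2.68 and 6.35, and the called uptake genes below 0.

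The group and the pathway lists gave 16 genes named here as called after the filter. Called marker genes and called genes most like a member are not in this count. Of the 16, 6 were still called without the intensity trend: Cxcl14, Cxcr4, Ccl2, Ccl7, Ccl8 and Cxcl11. Across all genes that setting left 1.3% called. Leaving out pair 1 ended the calls of Ccl4, Cxcl11, Cd74, Ccl11 and Ston2 beside Ackr3, leaving out pair 2 or pair 4 those of Cd74, Ccl11, Rab11fip5 and Ston2, and leaving out pair 3 those of Ackr2, Ccl4, Ccl24, Ccl11, Rab11fip5 and Ston2. Without pair 3, Cxcl11 did not pass the filter and was not tested, and 8 of the 16 were still called. The plot of settings shows Cxcl14 called in each of the 15, and Ackr3 in 8.

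**Figure D5:**
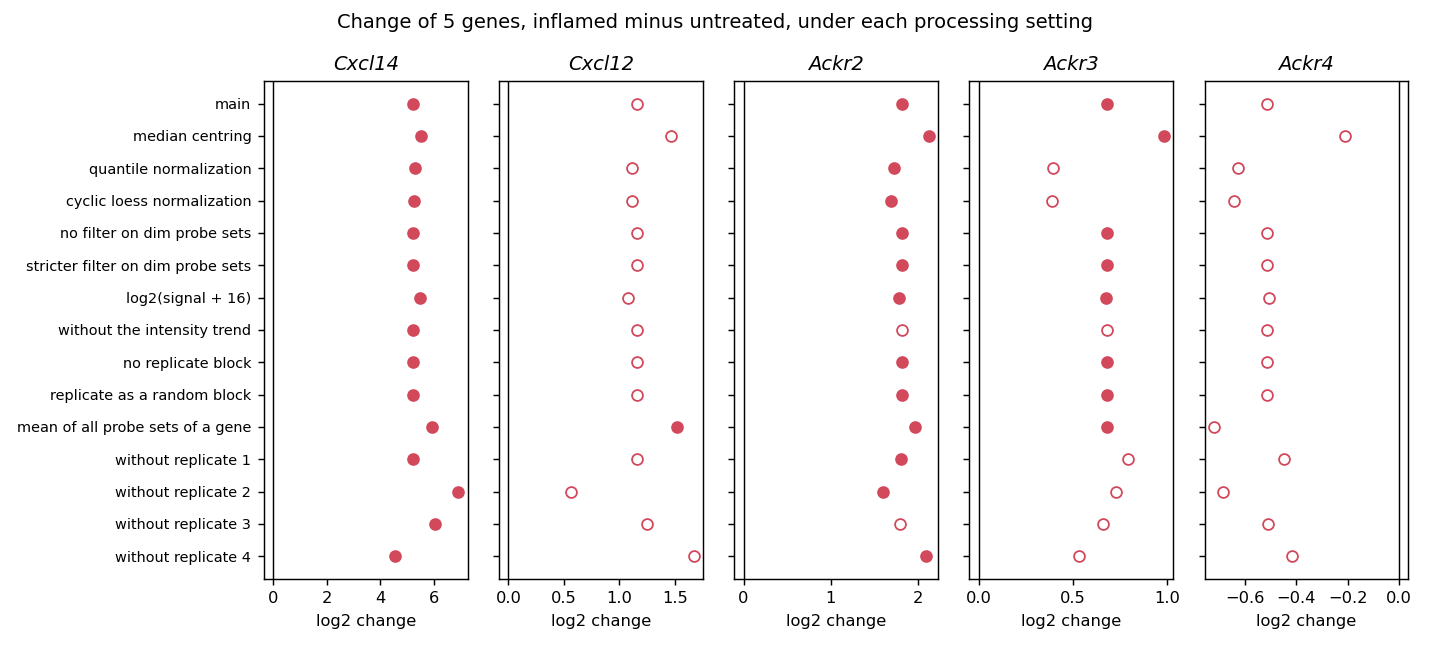
Change of 5 genes, inflamed minus untreated on the log2 scale (horizontal axes, which differ between panels), under each processing setting (vertical axis). Filled circles have an adjusted p under 0.05 in limma; Cxcl14 is filled in all rows, Ackr2 in all but 2, Cxcl12 in 1 and Ackr4 in none.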

How the data were processed

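Each array held RNA of 1 pool of sorted cells. The authors deposited 1 linear signal intensity per probe set and array, made with MAS5 per the submitters' processing notes; no source used here gives its version or scaling target. Probe sets took their gene from the platform annotation, and 34945 named 1 gene. Intensities were used as log2 without further scaling. Probe sets were kept when their mean over the 8 arrays reached the median of all probe sets, 3.30 on the log2 scale, and the brightest kept one stood for its gene. Background ceilings came from 27 bacterial control probe sets. Differences were tested in R 4.3.3 with limma 3.58.1 (intensity trend, pair as a block, Benjamini-Hochberg adjustment), a procedure tested on simulated data. Pairs come from the labels, which put the sorting of same-numbered samples on 1 day; deviations of same-numbered samples correlated at 0.14, 0.01, 0.07 and 0.03. Pools are separate mice. With the pair as a block, p-values measure how the within-pair differences vary among the 4 pairs, moderated by the spread of other genes. With 4 pairs, the number of arrays limits the precision. Dim members were read from a fit without the filter. Beside the members, each pathway list contributed up to 4 tested genes with the smallest p, with exceptions named where they appear. The members and lists were chosen with earlier results of these data known.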

Additional observations from a re-analysis of the deposited data

Results flagged for a closer look

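In 4 of the 40 groups of 4 arrays examined, 1 array stood apart from the other three by Dixon's criterion, which chance meets in about 1 of 20 groups. For one Cx3cl1 probe set these were untreated sample 4, at a signal of 10.5 against 2.94 to 3.35, and inflamed sample 1, at 58.4 against 2.84 to 3.50. Ackr1 read 46.9 in inflamed sample 2, against 4.13 to 6.18 in the other three. The shared Ccl21 probe set read 6133 in inflamed sample 1, against 8471 to 8754.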

How the results depend on the processing

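The number of genes called was 752, 141 without the intensity trend and 297 to 478 when 1 pair was left out, where fewer samples were fitted. Of the 5 tested genes of the group 3 were called, 1 without the intensity trend and 1 to 2 with a pair left out. Of their 11 probe sets that passed the filter 6 were called, with 1 called without the trend and 3 to 4 with a pair left out. No share over all probe sets is given beside these counts. The 6 called probe sets belong to the same 3 called genes, Cxcl14, Ackr2 and Ackr3, so they restate the gene count. Without the replicate block, 685 genes, 3 of the 5 and 6 probe sets were called, and the block changed no call among the 9 genes. Under median centring the median over all tested genes went from -0.09 to 0.22 and the split from 424 higher and 328 lower to 719 and 227. Signs turned for Calcrl (0.0071), Ramp2 (0.089), Mmp2 (0.165), Cxcl13 (0.066) and the shared Ccl21 probe set (0.053) under median centring, for Cxcl13 under quantile (0.056) and cyclic loess (0.121) normalization, for Mmp2 and Cxcl13 without pair 2, with ranges of -0.41 to 0.061 and -0.31 to 0.28 when 1 pair was left out (Cxcl13 passed the filter only without pair 1 or pair 2), and for Ackr1 without pair 2 and without the filter (-0.998), a setting chosen after seeing the data; the cause was not tested. Cxcl14 kept its direction and call in all 14 alternatives, at 4.54 to 6.92, and Ackr4 stayed uncalled at -0.72 to -0.21. Signals below the array ceilings, as for Cx3cl1 and Ackr1, limit what can be read.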
